A study of Mus musculus with 2 samples.

Results

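The barcodes described here were rich in the RNA of 2 or more islet hormones at once. A droplet barcode was counted as a member when it had at least 500 genes, at most 10% of its UMIs (unique molecular identifiers, the tags that count single RNA molecules) from mitochondrial genes, and at least 5% of its UMIs from each of 2 or more of insulin (Ins1 and Ins2 summed), Gcg, Sst and Ppy. Of 13446 barcodes that passed the filters, 1415 met this rule. They numbered 849 of 7100 in the WT library (12%, 95% interval 11.2% to 12.7%) and 566 of 6346 in the GKO library (8.92%, 8.23% to 9.65%). Among barcodes with any hormone at 5%, 15.1% of the WT barcodes were members (14.2% to 16.1%), as were 13.8% of the GKO barcodes (12.8% to 14.9%). The members were chosen by their hormone shares, so those shares are given as a description and nothing is tested on them.

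The islets came from 8-week-old C57BL/6N mice on standard chow, either wild-type (WT) or ghrelin knockout (GKO, homozygous littermates lacking ghrelin in every tissue). The study asked whether lowering the hormone ghrelin alters islet size and the mass of insulin-making β cells. It used knockout, ablation of ghrelin cells and a high-fat diet, read by histology. Single islet cells of WT and GKO mice were profiled to look for possible mediators of the larger islets. Islets of 4 mice per genotype were pooled, dispersed, sorted as live single cells and made into 1 droplet library of 3′ RNA ends per genotype. The WT library held 7792 barcodes with 158067110 UMIs, and the GKO library held 7289 barcodes with 103511757 UMIs. With 1 pool per genotype there is no replicate, so no p-value is given, and barcodes of a pool are not replicates of its mice. Every interval below is a 95% interval for counting error alone, exact binomial (Clopper-Pearson) for shares, exact Poisson for sums of UMIs, and from ranked values for medians.

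The endocrine islet is a mosaic of cell types, each named for a main hormone. β cells make insulin, which lowers blood glucose, and α cells make glucagon from Gcg, which raises it. δ cells make somatostatin from Sst, which restrains both neighbours, and γ cells make pancreatic polypeptide from Ppy. Ppy is a close relative of Pyy, which encodes peptide YY and is active in several islet cell types. A droplet can hold 1 cell, cells that stuck together or were caught together, and free RNA from broken cells, and the barcode alone does not tell these apart. In GRCm38.p6 (the mm10 assembly) Ins1 lies at chr19:52264297-52265015, Ins2 at chr7:142678656-142679726, Gcg at chr2:62474530-62483653 and Sst at chr16:23889573-23891342. Ppy at chr11:102099931-102101319 and Pyy at chr11:102106676-102107832 are close neighbours on the same chromosome.

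The knocked-out gene went with its labels. For Ghrl, the ghrelin gene, 43634 UMIs were counted in WT barcodes (276 CPM, counts per 1000000 UMIs) and 280 in GKO barcodes (2.71 CPM). Ghrelin RNA was nearly missing from the 2-hormone barcodes of both libraries, with 70 UMIs spread over 69 WT members, at most 2 in any barcode, and 1 UMI in all GKO members. The libraries had 18 barcode sequences in common, of which 1 was a member in both.

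The second hormone of a member was usually modest. Its median share was 7.43% of UMIs in WT and 7.24% in GKO, and its highest was 27.3% and 23.2%. A second hormone of 10% or more was found in 183 WT and 97 GKO members, and one of 20% or more in 10 and 4. The threshold did not fall in a gap. In WT, 211 barcodes had a second hormone between 5% and 6% and 236 had one between 4% and 5%, against 141 and 164 in GKO. The members closest to the limit stood at 5.001% (WT) and 5.01% (GKO), and the nearest barcodes outside it at 4.997% in both. For comparison, barcodes with no hormone at 5% (hormone-poor, 1495 in WT and 2256 in GKO) held a median of 0.506% and 0.499% insulin, 0.0387% and 0.0505% Gcg, 0.0243% and 0.0147% Sst, and 0.0751% and 0.0616% Ppy, which serve as the background for each hormone.

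Somatostatin with pancreatic polypeptide was the most frequent combination at the 5% threshold, though not at 10%. Sst+Ppy barcodes numbered 348 of 849 members in WT (41.0%, 37.7% to 44.4%) and 233 of 566 in GKO (41.2%, 37.1% to 45.3%). Gcg+Ppy came next, with 169 (19.9%, 17.3% to 22.8%) and 120 (21.2%, 17.9% to 24.8%). Gcg+Sst had 89 (10.5%, 8.50% to 12.7%) and 100 (17.7%, 14.6% to 21.1%). The insulin pairs were smaller in both libraries, although insulin-only barcodes were the most numerous single-hormone class in WT. Ins+Ppy had 83 and 29 barcodes, Ins+Sst 81 and 42, and Ins+Gcg 61 and 30. The remaining 18 WT and 12 GKO members carried 3 hormones, and none carried 4. With the threshold at 10% in place of 5%, Sst+Ppy had 34 barcodes in WT (18.6% of members) and 15 in GKO (15.5%), fewer than the 64 and 40 of Gcg+Ppy.

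Counts of pairs depend on how many single-hormone barcodes of each kind were present. Barcodes with exactly 1 hormone at 5% numbered 2059 for Ins, 951 for Gcg, 1144 for Sst and 602 for Ppy in WT, and 788, 1294, 851 and 591 in GKO. Each barcode of the one kind was therefore added, on paper, to each barcode of the other kind in the same library, and the sums that met the 5% rule for both hormones were counted. Sst+Ppy stood at 737 members per 1000000 such sums in WT (662 to 819) and 701 in GKO (614 to 797). For Gcg+Ppy the WT rate was 359 (307 to 417) and the GKO rate 185 (154 to 221). The other pairs lay far lower in WT, at 95.9 for Gcg+Sst (77 to 118), 83.9 for Ins+Sst (66.6 to 104), 72.8 for Ins+Ppy (58.0 to 90.3) and 47.6 for Ins+Gcg (36.4 to 61.1). In GKO they were 160 for Ins+Sst (115 to 216), 108 for Gcg+Sst (87.5 to 131), 67.3 for Ins+Ppy (45 to 96.6) and 42.7 for Ins+Gcg (28.8 to 60.9). The 2 pairs with the highest rates both contained Ppy, but in GKO the intervals of Gcg+Ppy and Ins+Sst overlapped.

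**Figure D1:**
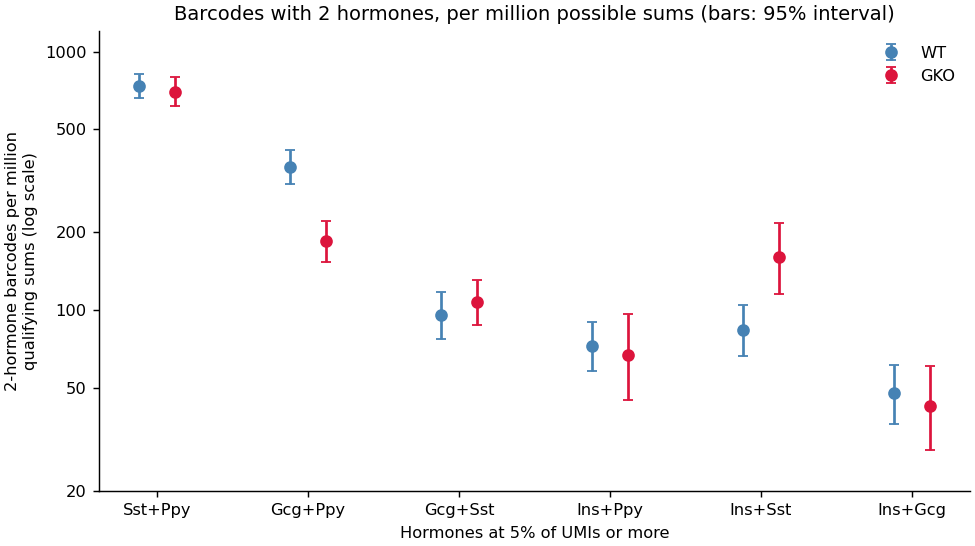
Barcodes rich in 2 hormones per 1000000 sums of single-hormone barcodes that would meet the same rule (log axis), for the 6 hormone pairs in WT and GKO, with 95% exact intervals for counting error as bars. Sst+Ppy is highest in both libraries (737 in WT and 701 in GKO) and Ins+Gcg lowest (47.6 and 42.7).

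UMIs and genes per barcode separated the pairs into different patterns. In Gcg+Sst barcodes the medians lay near those of the sums of 2 single-hormone barcodes and well above both single classes. In Sst+Ppy barcodes they lay near those of a single Sst-only barcode, and Gcg+Ppy lay between. The median of Gcg+Sst was 21746 UMIs in WT (lowest 5274, highest 57163) and 21055.5 in GKO (6779 to 59242), which is 91.9% and 94.2% of the median of its sums, 23660 and 22348. Ins+Gcg had medians of 44439 and 41763.5 UMIs, 93.4% and 90.6% of the sums, and Ins+Sst had 38867 and 35585.5 UMIs, 90.8% and 89.0%. Ins-only barcodes, with medians of 36569 UMIs in WT (35694 to 37381) and 35290 in GKO (34169 to 36720), alone reached 76.9% and 76.6% of the Ins+Gcg sums and 85.4% and 88.3% of the Ins+Sst sums. The Ins+Sst medians (35028 to 40806 in WT, 29083 to 42643 in GKO) overlapped those of Ins-only barcodes and were closer to them than to the sums in UMIs, though not in genes. Of Ins+Sst barcodes 79.0% and 71.4% were at or over the 10th percentile of the sums, and of Ins-only barcodes 74.4% and 75%. Ins+Ppy, with 43135 and 41633 UMIs, reached 71.8% and 72.0% of its sums, where Ins-only barcodes reached 60.9% and 61.01%. The intervals of the Ins+Ppy medians (30392 to 53042 in WT, 22834 to 55056 in GKO) and of the GKO Ins+Gcg median (30525 to 48900) also covered the Ins-only medians.

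The median of Sst+Ppy was 10948 UMIs in WT (interval 10672 to 11217, lowest 3571, highest 55296) and 10077 in GKO (9665 to 10422, lowest 2336, highest 45559). That is 33.9% and 32.5% of the median of the sums of an Sst-only and a Ppy-only barcode, 32263 and 31033. Sst-only barcodes had medians of 11092 (10899 to 11310) and 10197 (9991 to 10455), and Ppy-only barcodes had 21302.5 and 20846. The intervals of the Sst+Ppy and Sst-only medians overlapped in each library, and the Ppy-only medians lay well above both. Gcg+Ppy had medians of 18648 (16735 to 20035) and 16812 (14483 to 20408), which is 54.2% and 50.4% of the sums. These lay above the Gcg-only medians of 11814 and 11747.5 and below the Ppy-only medians. The share of members at or over the 10th percentile of the sums put the pairs in the same order. It was 78.7% for Gcg+Sst (70 of 89), 24.9% for Gcg+Ppy (42 of 169) and 6.03% for Sst+Ppy (21 of 348) in WT, and 84.0%, 33.3% and 10.3% in GKO. The 10th percentile of the Gcg+Ppy sums was also reached by 31.9% (WT) and 30.1% (GKO) of Ppy-only and 3.15% and 3.71% of Gcg-only barcodes. That of the Sst+Ppy sums was reached by 36.9% and 36.7% of Ppy-only and 2.27% and 2.94% of Sst-only barcodes.

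For Gcg+Sst, Gcg+Ppy and Sst+Ppy, numbers of genes per barcode put the pairs in the same order, while insulin pairs stood further above Ins-only barcodes in genes than in UMIs. Ins+Sst barcodes had medians of 4993 genes in WT and 5249.5 in GKO, 93.4% and 99.7% of the sums, where Ins-only barcodes, with 3911 and 3953.5 genes, had 73.1% and 75.1%. The 10th percentile of these sums was reached by 72.8% and 81.0% of Ins+Sst and 20.7% and 23.7% of Ins-only barcodes. Ins+Gcg barcodes had 4903 and 5249 genes, 93.2% and 99.3% of the sums, and Ins+Ppy barcodes 4763 and 4981 genes, 85.5% and 89.3%. Gcg+Sst barcodes had a median of 4521 genes in WT and 4634.5 in GKO, 95.3% and 99.7% of the median for their sums, where the genes of a sum are the union of both barcodes' genes. Sst+Ppy barcodes had 3029.5 and 2959 genes, 60.2% and 59.7% of their sums, beside 3145 and 3033 in Sst-only barcodes. Gcg+Ppy barcodes had 3355 and 3344 genes, 68.2% and 68.1% of the sums, beside 3454 and 3437 in Ppy-only and 2945 and 2960 in Gcg-only barcodes. At a fixed depth of 5000 UMIs, Sst+Ppy barcodes showed a median of 1794 genes in WT and 1835 in GKO. Sst-only barcodes showed 1867 and 1890, Ppy-only barcodes 1319 and 1352, and the sums 1555 and 1594. At that depth Sst+Ppy barcodes had slightly fewer genes than Sst-only barcodes and more than the sums, while Gcg+Sst barcodes (1774 and 1838) lay next to their sums (1767 and 1828). Gcg+Ppy barcodes, with 1484 and 1524 genes at that depth, were also slightly above their sums (1459 and 1514). Thinning left out 5 of 348 WT and 3 of 233 GKO Sst+Ppy barcodes that were shallower.

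**Figure D2:**
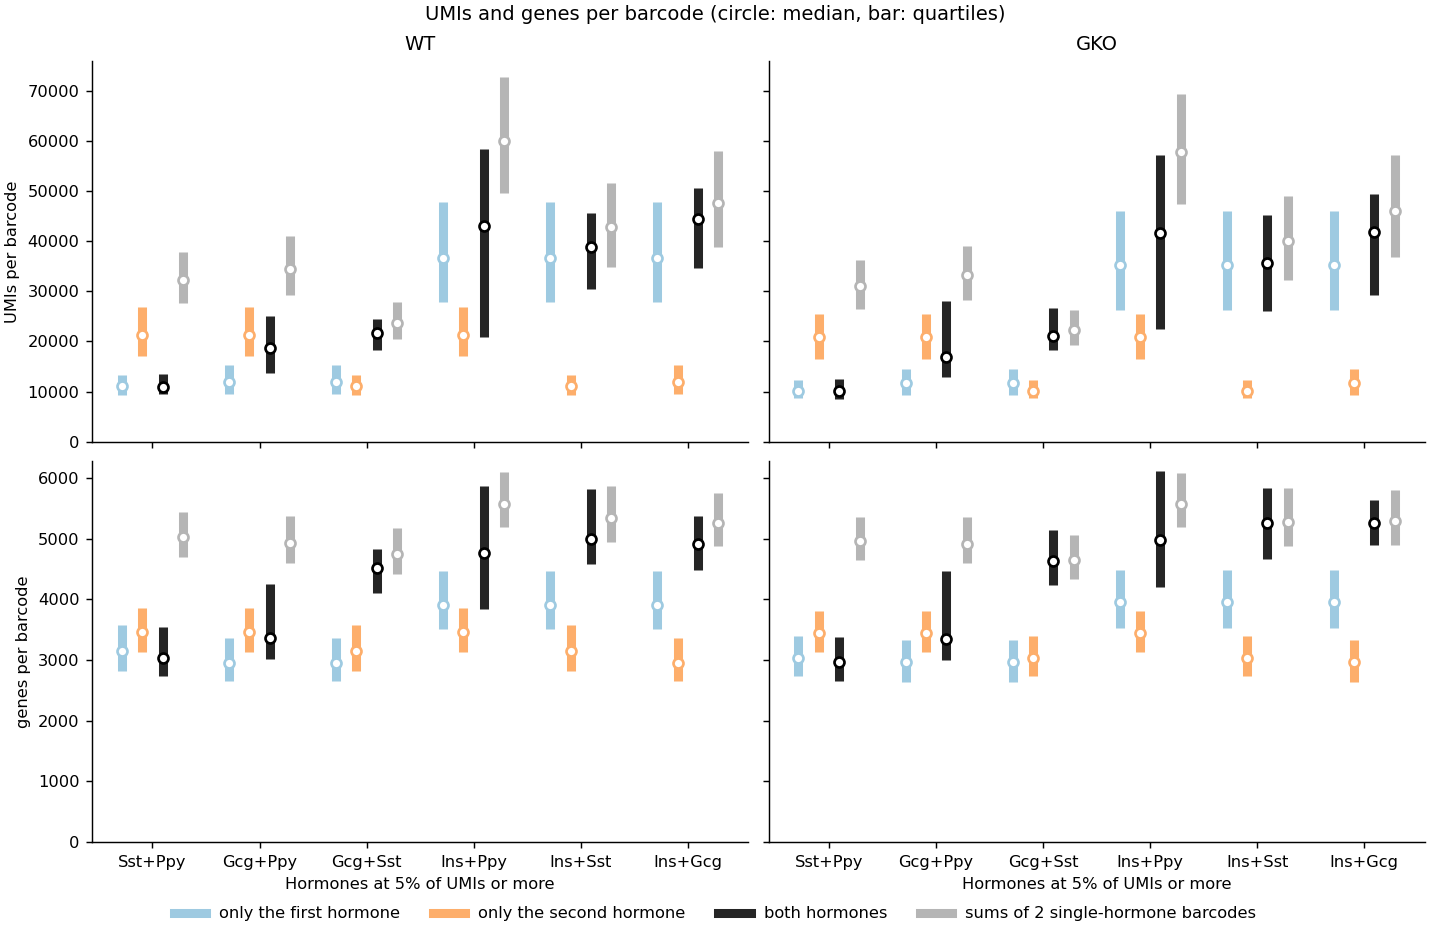
Median UMIs per barcode and median genes per barcode (points) with quartiles (bars) for single-hormone barcodes of each kind, 2-hormone barcodes and the sums of 2 single-hormone barcodes, for the 6 pairs in WT and GKO. Gcg+Sst barcodes sit next to their sums (21746 against 23660 UMIs in WT), whereas Sst+Ppy barcodes sit next to Sst-only barcodes (10948 against 11092 UMIs, with sums at 32263).

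The genes that tell the single-hormone classes apart were then read in the members. For each pair, side genes were those at least 5-fold higher in one single-hormone class than in the other in both libraries, with at least 100 CPM, where from here on CPM is taken over the UMIs without the 5 hormone genes. The level of a side in a barcode is its summed CPM as a percent of the median in single-hormone barcodes of that side. A side was counted as present at 25% or more. For Sst+Ppy there were 41 Sst-side genes, among them Hhex, the homeodomain factor that maintains δ cells, Rbp4, a retinol carrier abundant in δ cells, Iapp, Ptprz1 and Mef2c. The 14 Ppy-side genes included the thyroid hormone carrier Ttr, Wnt4 and the stress-responsive genes Atf3, Klf4 and Hspb8. Pyy was not among them, since Sst-only barcodes held 66270 CPM of Pyy in WT and 62312 in GKO, against 200744 and 192789 in Ppy-only barcodes.

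Sst+Ppy barcodes carried the δ-cell genes at about their Sst-only level, and the γ-cell genes at about the low level that Sst-only barcodes have. The median level of the Sst side was 103% of that in Sst-only barcodes in WT and 92.8% in GKO, and the median level of the Ppy side was 6.12% and 4.91%. The same Ppy-side genes stood at 5.72% and 4.61% in Sst-only barcodes. In the sums of 2 barcodes the medians were 49.0% and 46.4% for the Sst side and 59.5% and 59.1% for the Ppy side. Both sides were present in 31 of 348 WT barcodes (8.91%, 6.13% to 12.4%) and 25 of 233 GKO barcodes (10.7%, 7.07% to 15.4%), against 90.6% and 89.9% of the sums. The Sst side alone was present in 315 (90.5%) and 205 (88.0%). Of Sst-only barcodes, 4.46% and 3.06% had both sides. Iapp made up 67.1% and 68.0% of the Sst side and Ttr 51.5% and 49.3% of the Ppy side, and leaving these out gave 9.77% and 13.7% of barcodes with both sides. At a level of 35% in place of 25% the GKO share was 5.58%.

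The few Sst+Ppy barcodes with both sides were also deeper than those with the Sst side alone. The Ppy side alone was present in 2 WT and 3 GKO barcodes, which were deep as well, with medians of 31547 and 27729 UMIs. Barcodes with both sides had a median of 22964 UMIs and 4317 genes in WT and 29309 UMIs and 4747 genes in GKO, which is 71.2% and 94.4% of the UMIs of the sums. Ppy-only barcodes by themselves had medians of 21302.5 UMIs and 3454 genes in WT and 20846 UMIs and 3437 genes in GKO. The WT median UMIs with both sides thus lay close to that of Ppy-only barcodes. Barcodes with the Sst side alone had 10815 UMIs and 2994 genes in WT and 9779 UMIs and 2905 genes in GKO. Their hormone balance differed as well. Barcodes with both sides held a median of 8.21% Sst and 17.0% Ppy in WT (7.13% and 22.4% in GKO), and those with the Sst side alone held 15.8% and 6.90% (15.3% and 6.67% in GKO).

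**Figure D3:**
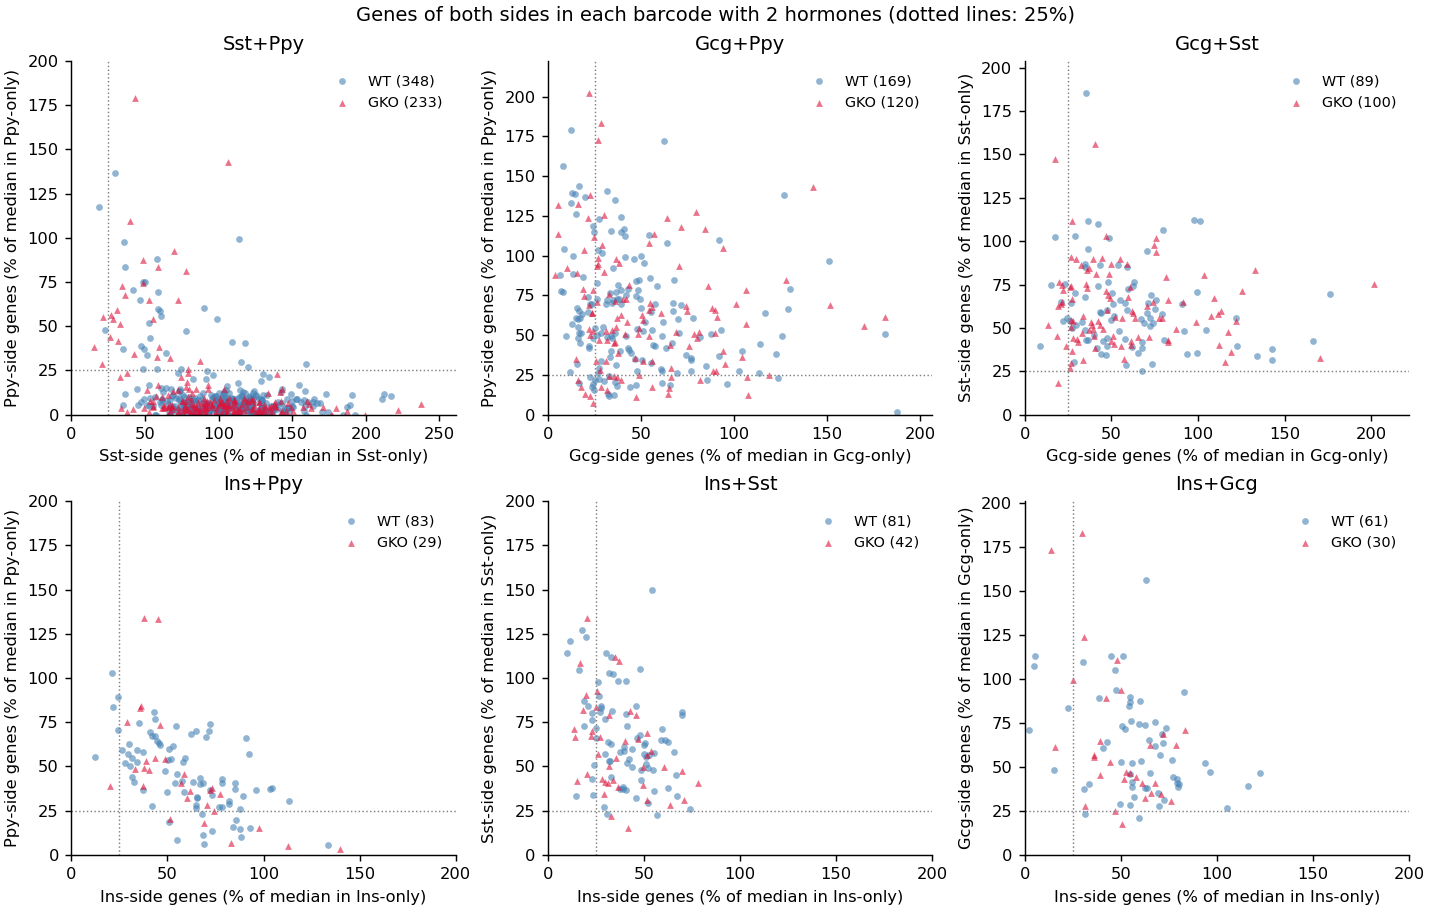
Level of the first side's genes (x axis) and of the second side's genes (y axis) in each 2-hormone barcode, in percent of the median of the matching single-hormone barcodes, for the 6 pairs (circles WT, triangles GKO, dotted lines at 25%). Most Sst+Ppy barcodes lie near 100% of the Sst side and under 25% of the Ppy side (315 of 348 in WT), while Gcg+Sst barcodes lie above both lines (82 of 89 in WT).

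Single genes of the δ-cell list were close to their Sst-only level, though not in every case. Hhex stood at 264 CPM in Sst+Ppy and 266 CPM in Sst-only barcodes of WT, and at 234 and 281 CPM in GKO, against 6.84 and 12.3 CPM in Ppy-only barcodes. The intervals overlapped in WT (246 to 282 and 256 to 276) and not in GKO (214 to 255 and 269 to 293). After thinning to 5000 UMIs, a Hhex UMI was found in 59.0% of WT and 56.6% of GKO Sst+Ppy barcodes, in 58.3% and 61.3% of Sst-only barcodes, and in 1.80% and 2.44% of Ppy-only barcodes, which should lack it. Without thinning the Hhex shares in Sst+Ppy barcodes were 81.6% and 79.0%. Rbp4 was at 6505 CPM in WT and 7324 CPM in GKO Sst+Ppy barcodes, and at 6843 and 7794 CPM in Sst-only barcodes. Ghsr, the ghrelin receptor, was at 30.8 and 35.3 CPM in Sst+Ppy and at 33.7 and 39.2 CPM in Sst-only barcodes. Of the 10 genes of the δ-cell list, 6 were at least 2-fold higher in Sst-only than in Ppy-only barcodes with 20 UMIs or more. All 6 (Hhex, Rbp4, Ghsr, Spock3, Crhr2 and Ptprz1) stood at 75% or more of their Sst-only level in both libraries, with a median of 93.2% in WT (85.5% to 113%) and 92.0% in GKO (81.0% to 125%).

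Pyy, by contrast, was at 79331 CPM in WT and 78871 CPM in GKO Sst+Ppy barcodes, between its Sst-only level of 66270 and 62312 CPM and its Ppy-only level of 200744 and 192789 CPM. The stress list, which was high in Ppy-only barcodes (23712 and 25241 CPM), was at 9487 and 10799 CPM in Sst+Ppy and at 8119 and 7388 CPM in Sst-only barcodes.

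Ppy RNA formed a continuum among somatostatin-rich barcodes. The 1492 WT and 1084 GKO barcodes with Sst at 5% and neither insulin nor Gcg at 5% were binned by their Ppy share. A share under 0.5% was found in 24.6% of them in WT and 29.1% in GKO, and a share of 5% to 7.5% in 13.5% and 11.99%, with no empty bin between. Median UMIs in WT were 10945 under 0.5%, 10971.5 at 5% to 7.5% and 10582 at 7.5% to 10%. The level of the Ppy side likewise stayed between 5.06% and 6.68% in all WT bins under 10% Ppy. Only in the 58 WT barcodes at 10% Ppy or more was it higher, at 10.8%, and in the 46 such GKO barcodes it was 32.4% with a median of 22725 UMIs. Pyy went from 63908 CPM in the lowest WT bin to 69737 CPM at 5% to 7.5% and 111436 CPM at 10% or more. The median Ppy share of all Sst-only barcodes, 1.48% in WT and 1.29% in GKO, was above that of Gcg-only barcodes (0.140% and 0.100%) and of hormone-poor barcodes (0.0751% and 0.0616%).

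**Figure D4:**
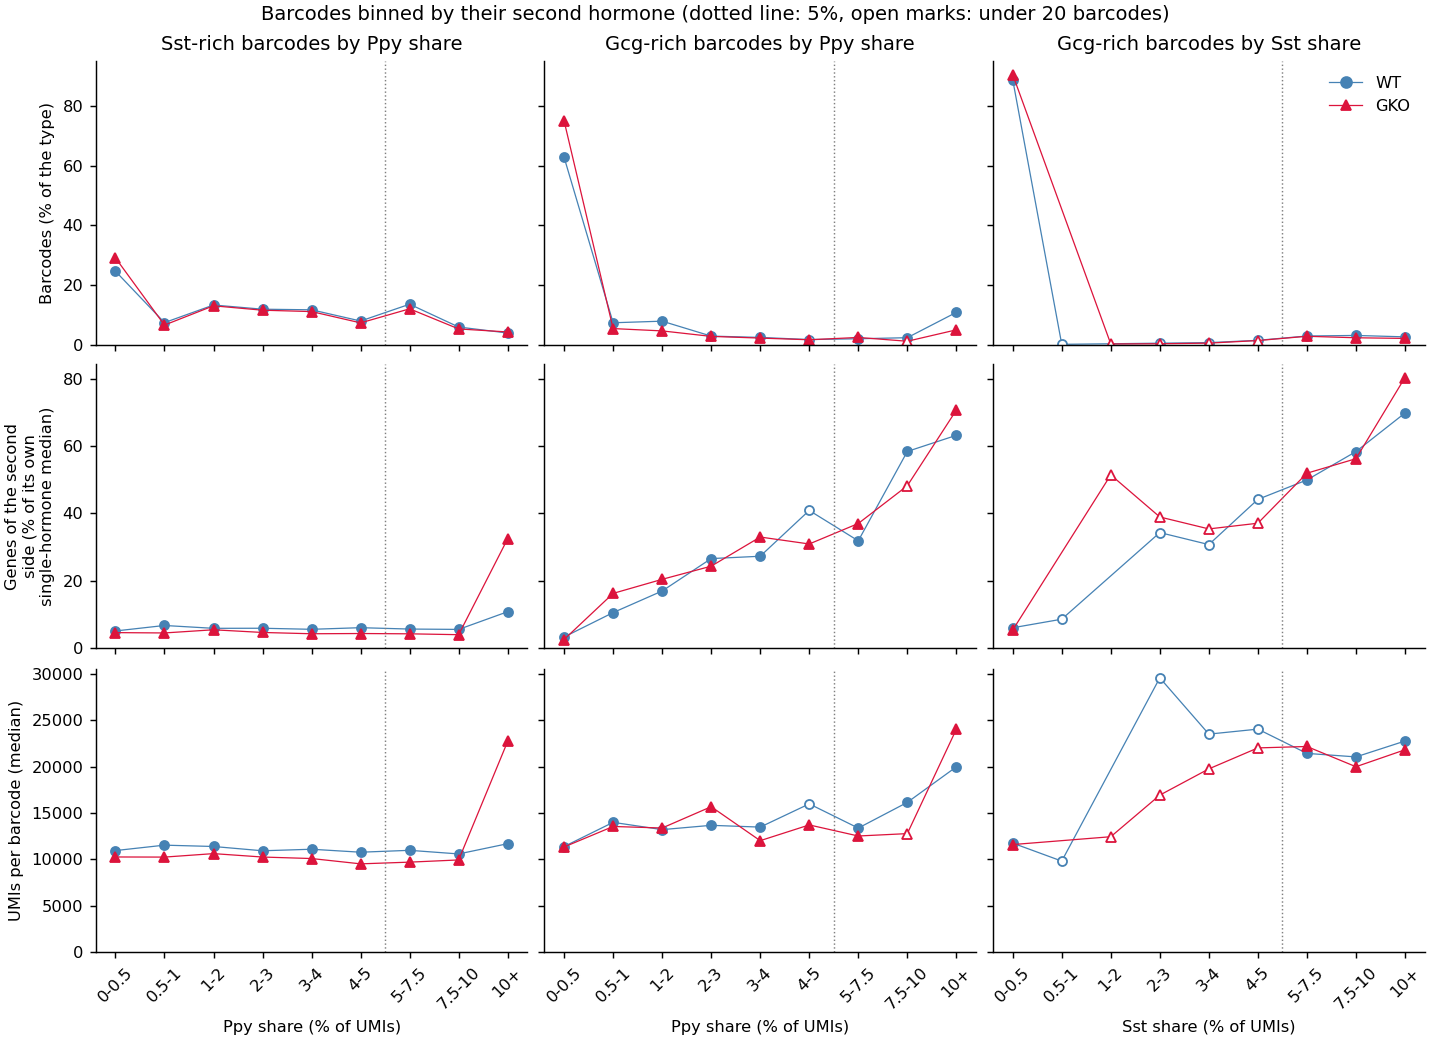
Sst-rich barcodes by Ppy share, Gcg-rich barcodes by Ppy share and Gcg-rich barcodes by Sst share (columns, x axis in percent of UMIs), with the percent of barcodes per bin, the level of the second side's genes in percent, and median UMIs (rows), for WT and GKO, with open marks for bins under 20 barcodes. Sst-rich barcodes fill all Ppy bins at nearly the same UMIs up to 10%, whereas Gcg-rich barcodes fall to almost none between 0.5% and 2% Sst (1 in WT and 3 in GKO) and those above 2% have bin medians of 16923.5 to 29569 UMIs.

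Sst+Ppy barcodes with the Sst side alone were also compared with Sst-only barcodes with the Sst side alone, a comparison chosen after the values were seen. Both groups were limited to the Sst side, so part of their likeness is set by that choice. Of 3350 genes compared in WT 12 lay past 2-fold (0.358%), and of 3427 in GKO 9 did (0.263%). Past 2-fold in both libraries were 4 genes. Cpb2, a plasma carboxypeptidase, was higher in Sst+Ppy barcodes by 2.04 on the log2 scale in WT (65.0 against 15.8 CPM) and 1.06 in GKO (77.7 against 37.3 CPM). Pdyn, which encodes the opioid precursor prodynorphin, was lower, with log2 ratios of -1.56 and -1.52 (26.1 against 76.8 CPM in WT and 25.9 against 74.3 CPM in GKO). Sparc, a matrix protein of stroma, had -1.51 and -3.55, and Apoe, a lipid carrier of macrophages and stroma, had -1.46 and -2.92. Pyy differed little, by 0.11 in WT and -0.06 in GKO. Median UMIs were 10815 against 11010.5 in WT and 9779 against 10133 in GKO, and the median Sst share was lower in the 2-hormone barcodes, at 15.8% against 18.9% and 15.3% against 18.6%.

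Gcg+Ppy barcodes carried α-cell genes and Pyy at intermediate levels. The Gcg side had 19 genes, including Irx1 and Irx2, transcription factors of α cells, Ttr, the amino acid carriers Slc7a2 and Slc38a5, and Oxtr. The Ppy side had 7 genes, Pyy, Hadh, Hspb8, Hspb1, Serpinh1, Folr1 and Tspan8. Both sides were present in 108 of 169 WT barcodes (63.9%, 56.2% to 71.1%) and 78 of 120 GKO barcodes (65.0%, 55.8% to 73.5%), against 82.7% and 81.6% of the sums. Of Gcg-only barcodes, 11.9% in WT and 11.3% in GKO had both sides, and of Ppy-only barcodes 8.47% and 7.11%. Median levels were 37.9% of the Gcg side and 57.2% of the Ppy side in WT, and 41.3% and 60.1% in GKO. Pyy alone made up 97.5% and 97.7% of the Ppy side and Ttr 87.3% and 87.4% of the Gcg side, and without these genes both sides were present in 42.0% and 51.7%. At a level of 35% in place of 25% the shares were 41.4% and 45.8%. Unlike in Gcg+Sst, the median UMIs of barcodes with both sides stayed well under those of the sums, though some of these barcodes were deeper. The 10th percentile of the genes of the sums was reached by 31 of the 108 and 26 of the 78. It was reached by 5 of 39 WT and 7 of 21 GKO barcodes with the Ppy side alone, and by 3 of 17 and 1 of 16 with the Gcg side alone. The barcodes with both sides had a median of 19069 UMIs and 3376.5 genes in WT and 17464.5 UMIs and 3393 genes in GKO, which is 55.4% and 52.4% of the UMIs of the sums.

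Named identity genes in Gcg+Ppy barcodes lay between the single-hormone classes, with Hhex an exception. Irx2 was at 94.6 CPM in WT and 99.3 CPM in GKO, beside 131 and 152 CPM in Gcg-only and 22.3 and 25.7 CPM in Ppy-only barcodes. Irx1 was at 49.6 and 53.4 CPM, beside 101 and 111 CPM in Gcg-only and 7.18 and 6.19 CPM in Ppy-only barcodes. Pyy was at 117198 and 127125 CPM, which is 58.4% and 65.9% of its Ppy-only level. Hhex was near its Ppy-only level, at 5.78 and 10.3 CPM, and so did not mark these barcodes. Of the α-cell list, 8 genes in each library were at least 2-fold higher in Gcg-only than in Ppy-only barcodes, not all the same ones, since WT had Pou3f4 and GKO had Fap. Their median level was 47.7% of Gcg-only in WT (37.7% to 77.6%) and 45.6% in GKO (22.7% to 80.8%, the lowest being Fap). The stress list stood at 15030 and 16756 CPM, beside 8234 and 9885 CPM in Gcg-only and 23712 and 25241 CPM in Ppy-only barcodes, and its part in the depth of these barcodes was not tested.

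Glucagon-rich barcodes with more Ppy also held more Pyy, which makes up nearly all of the Ppy side for this pair. Among barcodes with Gcg at 5% and neither insulin nor Sst at 5% (1120 in WT and 1414 in GKO), 62.8% and 75% had a Ppy share under 0.5%. In WT the level of the Ppy side went from 3.27% under 0.5% Ppy to 10.51% at 0.5% to 1%, 16.9% at 1% to 2%, 26.5% at 2% to 3% and 63.1% at 10% or more. In GKO it went from 2.52% to 16.2%, 20.4%, 24.3% and, at 10% or more, 70.6%. The Gcg side went down over the same bins, from 108% to 34.1% in WT and from 105% to 33.7% in GKO. Bins in between were not in strict order, with 40.8% at 4% to 5% (19 barcodes) and 31.8% at 5% to 7.5% in WT. Gcg-rich barcodes under the 5% threshold thus already held Pyy above the lowest bin. In Sst-rich barcodes Pyy was at 63908 CPM in WT and 62893 CPM in GKO under 0.5% Ppy, at 69737 and 56000 CPM at 5% to 7.5%, and at 111436 and 118330 CPM at 10% or more.

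Gcg+Sst barcodes carried α-cell and δ-cell genes each at about the level of a sum. Both sides (32 and 41 genes) were present in 82 of 89 WT barcodes (92.1%, 84.5% to 96.8%) and 89 of 100 GKO barcodes (89.0%, 81.2% to 94.4%), against 86.7% and 86.1% of the sums. Ttr made up 80.7% of the Gcg side in both libraries and Iapp 66.6% and 67.4% of the Sst side, and without these genes both sides were present in 97.8% and 100%. Median levels were 54.1% and 56.6% in WT and 47.6% and 57.4% in GKO. In the sums they were 49.2% and 55.9% in WT and 50.6% and 54.6% in GKO. Irx2 stood at 68.7 CPM in WT and 73.3 CPM in GKO, Irx1 at 55.1 and 57.8 CPM, and Hhex at 150 and 163 CPM, each below its Gcg-only or Sst-only level. After thinning, an Irx2 UMI was found in 21.3% and 22.6% of Gcg+Sst and 36.9% and 40.7% of Gcg-only barcodes. A Hhex UMI was found in 41.2% and 43.7% of Gcg+Sst barcodes, beside 58.3% and 61.3% of Sst-only and 1.76% and 1.21% of Gcg-only barcodes. Unthinned, where Gcg+Sst barcodes are deeper, the shares in them were 61.8% and 65% for Irx2 and 83.1% and 84% for Hhex, beside 64.6% and 67.8% in Gcg-only and 79.8% and 81.2% in Sst-only barcodes. Of the lists, 9 α-cell genes in WT had a median of 52.6% of Gcg-only and 7 δ-cell genes a median of 62.4% of Sst-only, and in GKO 10 and 8 genes had 48.2% and 60.6%.

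The Sst shares of glucagon-rich barcodes are given next as a description, since the rule uses these shares. Of 1040 WT and 1394 GKO barcodes with Gcg at 5% and neither insulin nor Ppy at 5%, 88.8% and 90.5% had an Sst share under 0.5%. Between 0.5% and 2% there were 1 and 3 barcodes. Barcodes above 2% were deep, with bin medians of 21043.5 to 29569 UMIs in WT and 16923.5 to 22167 UMIs in GKO, against 11750 and 11592 UMIs under 0.5%.

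**Figure D5:**
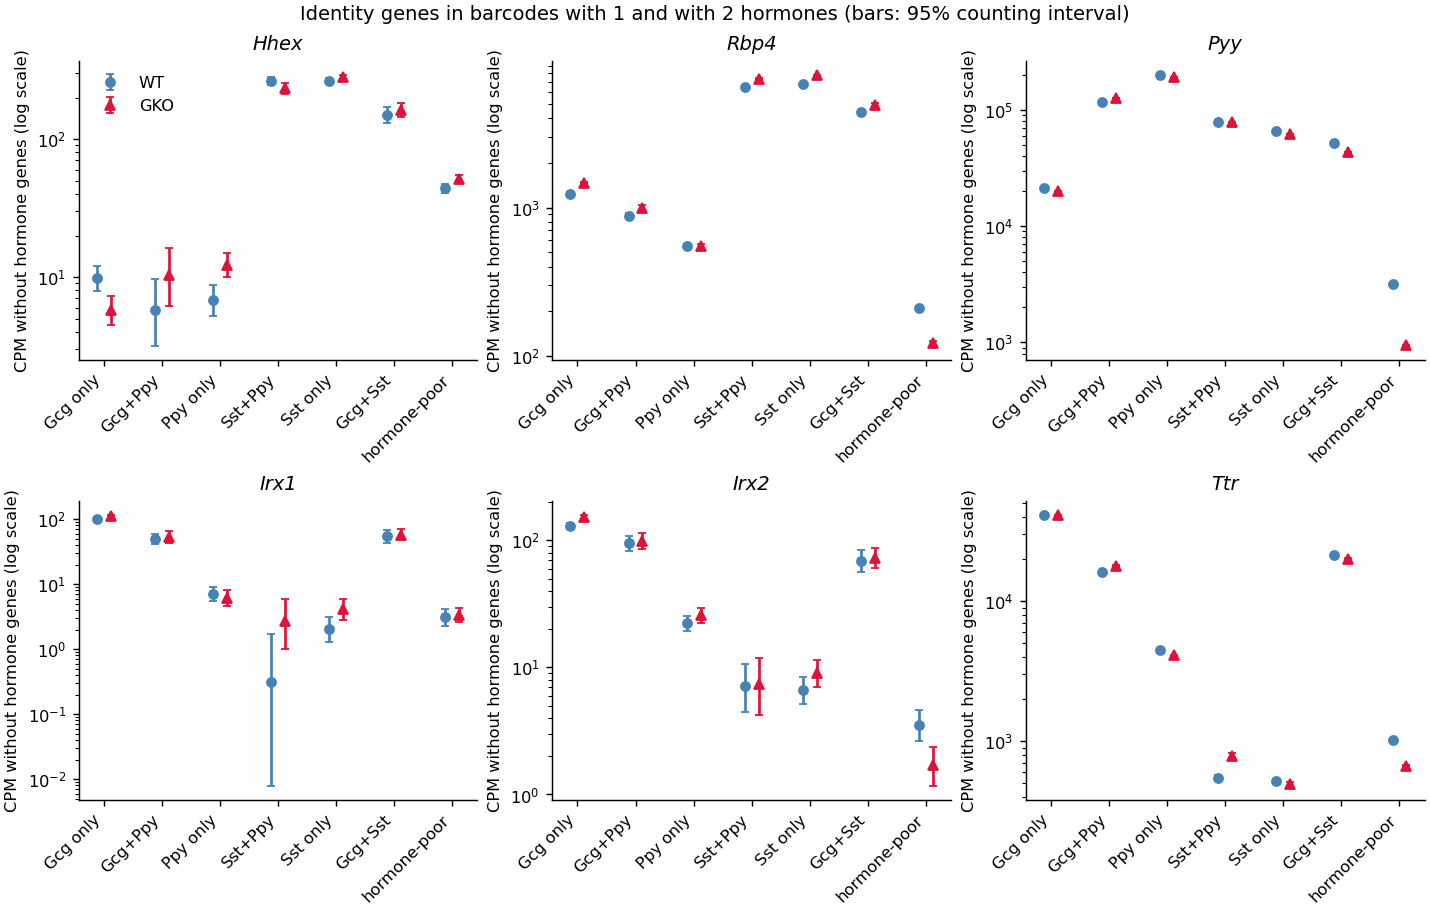
Summed CPM (log axis, total without the 5 hormone genes, bars 95% exact Poisson intervals) of Hhex, Rbp4, Pyy, Irx1, Irx2 and Ttr in Gcg-only, Gcg+Ppy, Ppy-only, Sst+Ppy, Sst-only, Gcg+Sst and hormone-poor barcodes of WT and GKO. Hhex in Sst+Ppy barcodes (264 CPM in WT) matches its Sst-only level (266 CPM, but 234 against 281 CPM in GKO), and Irx1 in Gcg+Ppy barcodes (49.6 CPM in WT) lies between its Gcg-only (101 CPM) and Ppy-only (7.18 CPM) levels.

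Most barcodes of the insulin pairs had both sides, but a single gene made up much of most sides. Iapp was 86.5% of the Ins side of Ins+Gcg in WT and 86.4% in GKO, with Ttr at 76.8% and 78.1% of its Gcg side. Pyy was 80.5% and 78.6% of the Sst side of Ins+Sst and 84.2% and 83.3% of the Ppy side of Ins+Ppy, and shares without these genes were not computed for the insulin pairs. Ins+Gcg barcodes had both sides (48 β-side and 37 α-side genes) in 54 of 61 WT (88.5%, 77.8% to 95.3%) and 25 of 30 GKO barcodes (83.3%, 65.3% to 94.4%), against 93% and 90.9% of the sums. Ins+Sst barcodes had both sides in 64 of 81 (79.0%) and 29 of 42 (69.0%), against 82.5% and 80.2% of the sums and 10.3% and 7.99% of Ins-only barcodes. Ins+Ppy barcodes had both in 66 of 83 (79.5%) and 21 of 29 (72.4%), against 87.5% and 85.9%. Nkx6-1, a β-cell transcription factor, was at 136 CPM in WT and 179 CPM in GKO Ins+Gcg barcodes, beside 296 and 330 CPM in Ins-only barcodes. Slc2a2, the glucose transporter GLUT2 of β cells, was at 425 and 302 CPM in Ins+Gcg, beside 737 and 724 CPM in Ins-only barcodes. Over the β-cell list, 11 genes in Ins+Gcg had a median of 52.8% and 45.7% of Ins-only, 11 in Ins+Sst 38.5% and 39.6%, and 12 in Ins+Ppy 42.4% and 36.6%. Mafa, a factor of mature β cells, was scarce everywhere in these libraries.

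Ins+Ppy was the insulin pair whose UMIs fell most short of the sums. Its 66 WT barcodes with both sides had a median of 47160 UMIs, and the 12 with the insulin side alone had 17690.5 UMIs and 3777.5 genes. In GKO the values were 45701 UMIs for 21 barcodes and 22834 UMIs for 7. The Ppy side alone was present in 5 WT barcodes, with medians of 49197 UMIs and 6114 genes, and in 1 GKO barcode with 44139 UMIs. The barcodes with the insulin side alone held 6.31% and 7.63% Ppy, against 10.9% and 12.5% in those with both sides. Median insulin shares were 31.6% and 24.7% over all Ins+Ppy barcodes, beside 42.0% and 31.2% in Ins+Gcg and 38.1% and 33.2% in Ins+Sst. Median mitochondrial shares ranged over the pairs from 2.59% in Sst+Ppy to 3.31% in Gcg+Sst in WT, and from 2.96% in Sst+Ppy to 5.12% in Ins+Gcg in GKO.

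Members with 3 hormones were few and deep. The 18 in WT had a median of 29288.5 UMIs and 5085.5 genes, and the 12 in GKO had 26116 UMIs and 5194.5 genes. Gcg+Sst+Ppy was the most frequent set, with 6 WT barcodes between 16549 and 23953 UMIs and 8 GKO barcodes between 14355 and 50643 UMIs. The 3 Ins+Gcg+Ppy barcodes of WT ranged from 54216 to 76431 UMIs, and the single one of GKO had 65881. The 4 Ins+Sst+Ppy barcodes of WT were shallower, with a median of 14426 UMIs.

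The identity lists were also described by hormone balance, which rests on the shares that chose the members. Each pair was split at the median share of its first hormone in the sum of both. In Gcg+Ppy, the barcodes with more Gcg held 24051 CPM of the α-cell list in WT against 16601 CPM in those with less, and 27510 against 18236 CPM in GKO. The γ-cell list, nearly all Pyy, went the other way, with 97622 against 134809 CPM in WT and 99422 against 144231 CPM in GKO. UMIs differed along with it, at 15804 against 21937.5 in WT and 13172.5 against 26754.5 in GKO. In Gcg+Sst, the α-cell list was at 27155 against 22112 CPM in WT and 28650 against 17430 CPM in GKO. The Sst+Ppy barcodes with more Sst held 8752 CPM of the δ-cell list in WT against 7789 CPM, and 10294 against 7930 CPM in GKO. Their Ppy-side genes summed to 506 CPM in those with more Sst and 1713 CPM in those with less in WT, and to 399 and 2506 CPM in GKO. These are splits of barcodes in 1 library and have no replicate.

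The summed profile of each pair was also set against the best mix of the single-hormone profiles, fitted over all genes but the hormones. The Sst+Ppy profile was fitted with 90.5% Sst-only in WT and 86.0% in GKO, whereas Gcg+Sst took 48.4% and 47.2% Gcg-only and Gcg+Ppy took 47.6% and 42.4% Gcg-only. The fit of Sst+Ppy was hardly closer than Sst-only alone. The median size of the log2 ratio was 0.08 in WT and 0.09 in GKO to the mix, 0.08 and 0.09 to Sst-only, and 0.36 and 0.35 to Ppy-only. Few genes lay past 2-fold of the mix. For Gcg+Sst there were 21 of 3353 in WT (0.626%) and 10 of 3461 in GKO (0.289%), of which 1 and 0 were higher than the mix. For Gcg+Ppy there were 17 of 2919 (0.582%) and 6 of 2991 (0.201%), with 8 and 2 higher. For Sst+Ppy there were 13 of 3339 (0.389%) and 13 of 3398 (0.383%), with 1 and 0 higher.

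No gene of these pairs was higher than the mix in both libraries. Lower in both were 3 of 3211 genes in Gcg+Sst, 0 of 2803 in Gcg+Ppy and 3 of 3207 in Sst+Ppy. In Gcg+Sst these were Ifitm3, an interferon-induced membrane protein (log2 ratio -1.47 in WT and -1.46 in GKO), Gsn, the actin-severing gelsolin (-1.23 and -2.31), and Sparc (-1.02 and -2.51). In Sst+Ppy they were Sparc (-2.47 and -3.83), Pdyn (-1.35 and -1.25) and Gsn (-1.22 and -2.62). Sparc, Gsn and Ifitm3 are abundant in stroma and endothelium. The activated stellate list was at 5.85 CPM in Sst+Ppy and 245 CPM in Sst-only barcodes of WT, and at 18.8 and 531 CPM in GKO. The endothelial list was at 98.3 and 327 CPM in WT and at 106 and 145 CPM in GKO. The part of either list in these ratios was not tested. Without the filter on low counts 1512 to 1639 genes lay past 2-fold of the mix in these pairs and libraries, and with equal weight for each barcode 5 and 5 did in Gcg+Sst and 17 in WT Gcg+Ppy, of which 2 were higher and 15 lower.

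Markers of other cell types were mostly lower in the members than in hormone-poor barcodes, though less so for some lists and pairs. The macrophage list summed to 480 CPM in WT and 198 CPM in GKO Sst+Ppy barcodes, beside 10790 and 17242 CPM in hormone-poor barcodes, with Cd74 its most abundant gene in the latter. Of its 10 genes, 2 were at 0 in GKO Sst+Ppy barcodes. The endothelial list was at 98.3 and 106 CPM in Sst+Ppy barcodes beside 8432 and 5041 CPM in hormone-poor ones, led there by Plvap. Of the acinar list, whose Ctrb1 encodes a digestive enzyme, WT Sst+Ppy barcodes held 631 CPM and Sst-only barcodes 1346 CPM. The ductal list, led by the keratin gene Krt18, was at 564 CPM in Sst+Ppy and 746 CPM in Ins+Ppy barcodes of WT, beside 1145 CPM in hormone-poor and 516 CPM in Sst-only barcodes. In GKO Ins+Ppy barcodes the activated stellate list, led by Dcn, was at 763 CPM and the macrophage list at 633 CPM, beside 9305 and 17242 CPM in hormone-poor barcodes. Genes common to all endocrine cells, such as Chga and Scg2, summed to 19655 CPM in WT and 19939 CPM in GKO Sst+Ppy barcodes, close to the 19433 and 19955 CPM of Sst-only barcodes, and to 1489 and 1059 CPM in hormone-poor barcodes. The members were thus endocrine by these lists, as the label has it, and the 4 hormones that mark the class are the rule itself.

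Barcodes with 1 hormone and a clear non-endocrine list were looked at as mixed barcodes of another kind. Single-hormone barcodes with at least 0.5% of UMIs from the endothelial list were 43 of 4756 in WT (0.904%, 0.655% to 1.22%) and 12 of 3524 in GKO (0.341%, 0.176% to 0.594%). Those with the macrophage list were 33 (0.694%, 0.478% to 0.973%) and 49 (1.39%, 1.03% to 1.83%). They were rich in genes, with medians of 4327 and 4687.5 for the endothelial and 4902 and 4722 for the macrophage kind. All other single-hormone barcodes had medians of 3481 and 3239 against the first kind and 3479 and 3233 against the second. Their UMIs did not all go the same way, with medians of 16633 in WT and 18734.5 in GKO for the endothelial kind, against 20287 and 14171 in the others, and of 31825 and 25969 for the macrophage kind, against 20102 and 14045. The 10 WT Ins-only barcodes with the endothelial list had 19059 UMIs, against 36645 in the other Ins-only barcodes. The 7 WT and 12 GKO Sst-only barcodes with the macrophage list had medians of 21400 and 22477 UMIs, against 11087 and 10165 in the other Sst-only barcodes and 10948 and 10077 in Sst+Ppy barcodes. Among members, 6 WT and 1 GKO barcodes reached the endothelial and 4 and 4 the macrophage list.

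GKO and WT were compared across all genes for Gcg+Sst, Gcg+Ppy and Sst+Ppy members, and not for the insulin pairs. Of 2610 genes compared in Gcg+Sst, 5 lay past 2-fold (0.192%), of 2882 in Gcg+Ppy 7 (0.243%), and of 3402 in Sst+Ppy 10 (0.294%). In Gcg+Ppy 2 were higher and 5 lower in GKO, and with equal weight for each barcode 6 were higher and 3 lower. The same comparison in single-hormone barcodes gave 23 genes for Ins (0.691%), 17 for Gcg (0.523%), 34 for Sst (0.988%) and 16 for Ppy (0.583%). The largest ratios in Gcg+Sst and Sst+Ppy were those of antigen-presentation genes of macrophages, and single barcodes held a large part of their UMIs. In Gcg+Sst, H2-Ab1 (log2 GKO to WT 2.54), Cd74 (2.03) and H2-Eb1 (1.91) were higher in GKO, and 1 of 100 barcodes held 77.3%, 79.4% and 74.5% of their GKO UMIs. In Sst+Ppy, Cd74 (-4.09), H2-Ab1 (-3.33) and H2-Aa (-3.21) were lower in GKO, and 1 of 348 WT barcodes held 48.3%, 50.9% and 48.7% of their WT UMIs. In Sst-only barcodes Cd74 had the opposite sign (1.11). In Gcg+Ppy, Apoe had -1.81, with 60.05% of its WT UMIs in 1 barcode.

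Digestive enzyme genes went both ways. Lower in GKO were Try4 at -2.26 (114 against 23.9 CPM) and Pnlip at -1.19 in Sst+Ppy, Ctrb1 at -1.23 in Gcg+Sst (131 against 56.1 CPM) and Try4 at -1.05 in Gcg+Ppy. Of these, Try4 was at -2.27 in Sst-only and Ctrb1 at -1.11 in Gcg-only barcodes. Cela1, another such gene, was higher in GKO Gcg+Ppy by 1.08, with 35.2% of its GKO UMIs in 1 barcode, but was at -1.06 in Gcg-only and -0.30 in Ppy-only barcodes. The whole acinar list was also higher in GKO Gcg+Ppy barcodes, at 490 against 344 CPM in WT, with Ctrb1 at 188 against 111 CPM. In every other pair the list was lower in GKO, at 325 against 631 CPM in Sst+Ppy and 191 against 445 CPM in Gcg+Sst. Ins+Gcg had 174 against 651 CPM, Ins+Sst 145 against 447 CPM and Ins+Ppy 141 against 548 CPM. The acinar list in hormone-poor barcodes was at 17912 CPM in WT and 2912 CPM in GKO, and its part in these values was not tested. Ptn, which encodes the growth factor pleiotrophin, was higher in Sst+Ppy by 0.94 (80.1 against 153 CPM) and in Sst-only by 1.06. Stmn1 was higher in Sst+Ppy by 1.42, and 39.4% of its GKO UMIs lay in 1 barcode. In Gcg+Ppy, Hspb8 was higher by 1.12 and Id3 and Dapl1 lower at -1.52 and -1.43. In Gcg-only and Ppy-only barcodes Hspb8 was at 0.14 and 0.18, Id3 at -0.12 and -0.23, and Dapl1 at -0.53 and -0.88. Between these 2 classes in WT, Hspb8 differed with 13.8 and 181 CPM, and Dapl1 with 136 and 5.27 CPM. The part of the balance between the 2 classes in these ratios was not tested.

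The hormones that name the pairs are given next as CPM over all UMIs, as a description. In Sst+Ppy barcodes Sst was at 149118 CPM in WT and 130336 CPM in GKO (log2 -0.19), Ppy at 100183 and 117140 CPM (0.23), and Pyy at 58957 and 58797 CPM (0.00). In Gcg+Sst barcodes Gcg was at 139682 and 140683 CPM (0.01) and Sst at 89288 and 85230 CPM (-0.07). In Gcg+Ppy barcodes Gcg had 136422 and 142131 CPM (0.06) and Ppy 183569 and 175158 CPM (-0.07). Apart from Pyy, which the rule does not use, these hormones are held to 5% or more in every member, and the other hormones are held under 5%. Among the latter, in Sst+Ppy barcodes Gcg was at 754 CPM in WT and 1849 CPM in GKO (1.29). In Gcg+Ppy barcodes Sst was at 2648 and 3644 CPM (0.46), Ins1 at 1435 and 893 CPM (-0.68) and Ins2 at 4051 and 2603 CPM (-0.64). These are sums, to which a few barcodes just under 5% can add much. The median Gcg share of Sst+Ppy barcodes was 0.0411% in WT and 0.0553% in GKO, and the highest 2.31% and 4.85%. In Gcg+Ppy barcodes the median Sst share was lower in GKO, at 0.0270% in WT and 0.0200% in GKO. Their median insulin share was also lower in GKO, at 0.451% and 0.363%. In Ins+Gcg barcodes, which both genes name, Ins1 was at 114625 and 82427 CPM (-0.48) and Gcg at 84530 and 99985 CPM (0.24). Ghsr in Sst+Ppy barcodes, at 22.9 and 26.3 CPM, had a log2 ratio of 0.20. Its interval for counting error, -0.25 to 0.65, covered no change, and with 1 library per genotype a genotype difference was not tested.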

How the data were processed

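Both libraries were 3′ droplet libraries of sorted islet cells, 1 per genotype from 4 pooled mice. Per the labels, the authors aligned reads and counted UMIs with Cell Ranger 5.0.1 against mm10, and the deposited values are raw counts of UMIs per gene and barcode. In later steps the authors removed ambient RNA and clusters of doublets. Neither step was part of the values here, a subtraction of free RNA was run only as an alternative, and no doublet caller was run, so a barcode may hold several cells. A sum of 2 barcodes assumes that both cells give their full UMIs.

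The members, lists and pairs were chosen with earlier results of these data known. The side genes, the bins of the second hormone and the comparison within Sst-side barcodes were chosen after the values were seen. Named genes were the 5 hormone genes, the marker lists, and the 5 genes highest and lowest per comparison, among genes with 50 CPM in 1 profile, 20 UMIs in each and 200 in both. From the mix comparison a gene was named where it lay past 2-fold the same way in both libraries. Pairs under 50 barcodes in a library were left out of the comparisons across all genes, and only marker and hormone genes are given for them. Sex-linked genes were not used, and some genes that the rule names are not reported here. Other thresholds, scalings (edgeR 4.0.16 TMM in R 4.3.3), thinning depths and filters were tried. Sparse matrices were read with scipy 1.17.1 in Python 3.11.15, summed with numpy 2.4.6 and tabulated with pandas 2.3.3, and figures were drawn with matplotlib 3.10.9. The code was tested on simulated data. Gene positions are from RefSeq.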

Additional observations from a re-analysis of the deposited data

Results flagged for a closer look

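Barcodes with 2 or more hormones at 5% were also present outside the filters, which the comparisons above do not use. Of 692 barcodes left out in WT there were 19 (2.75%, 1.66% to 4.25%). Of these, 4 had under 500 genes, and 15 had 500 or more genes but over 10% mitochondrial UMIs. Of 943 left out in GKO there were 15 (1.59%, 0.893% to 2.61%), 7 and 8 of these kinds. Their median was 7895 UMIs in WT and 1572 in GKO, and Sst+Ppy made up 2 and 3 of them. Without a minimum of genes the members numbered 852 in WT and 569 in GKO, against 849 and 566 with it. Some barcodes with under 500 genes were therefore also over the mitochondrial limit.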

How the results depend on the processing

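No paired analysis was possible because each genotype had 1 library, and for the same reason no library could be left out. Of 238 values under other settings, 159 moved by less than their interval or stayed within 1.5 times for a count. Values that moved and crossed from below to above what they were set against were genes per barcode of Sst+Ppy and Gcg+Ppy and of WT Gcg+Sst against the sums when thinned, the shares of barcodes with Irx2 in Gcg+Ppy and Hhex in Gcg+Sst without thinning, and Hhex in GKO Sst+Ppy at a hormone share of 10%. With free RNA subtracted, none of 16 values moved beyond its interval (members were 11.7% of WT and 8.73% of GKO barcodes, and Sst+Ppy 40.9% and 40.8% of them). The cause of each shift was not tested unless the setting itself gives it. At hormone shares of 10%, 20% and 2% the members were 2.58%, 0.141% and 24.5% of WT and 1.53%, 0.0630% and 18.1% of GKO barcodes. Sst+Ppy was then 18.6%, 0.0% and 46.9% of WT and 15.5%, 0.0% and 49.8% of GKO members. At 10% the UMIs of Sst+Ppy in WT were 32.8% of the sums, their genes 56.7% in WT and 53.7% in GKO, and the UMIs of GKO Gcg+Ppy 62.2%. With 5% mitochondrial UMIs the GKO share was 9.73%. UMIs of Sst+Ppy were 37.6% and 36.4% of the sums without hormone genes and 37.3% and 39.2% as means, and those of Gcg+Ppy 58.9% and 61.8% as means. Thinned to 5000 UMIs, genes were 115% and 115% of the sums for Sst+Ppy, 102% and 101% for Gcg+Ppy and 100.4% for WT Gcg+Sst. Thinned to 2000 UMIs they were 116% and 116%, 102% and 101%, and 101%. Without thinning, the share of Gcg+Sst barcodes with Irx2 was 95.7% and 95.9% of that in Gcg-only barcodes, with Hhex 104% and 103% of Sst-only, and that of Gcg+Ppy barcodes with Irx2 111% and 106%. At a hormone share of 10%, Hhex in Sst+Ppy was 115% and 106%, and Hhex in WT Gcg+Sst 49.2%.

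Without a filter on low counts, genes past 2-fold of the mix were 1512 and 1534 for Gcg+Sst, 1604 and 1557 for Gcg+Ppy and 1639 and 1585 for Sst+Ppy, and between GKO and WT 1501, 1543 and 1426. With equal weight of barcodes they were 5 and 5 for Gcg+Sst, 10 for GKO Gcg+Ppy and 5 for WT Sst+Ppy, and with equal weights of the mix 53 and 48 for Sst+Ppy. CPM over all UMIs left 3 genes between GKO and WT in Gcg+Ppy. The endothelial share in WT was 1.35% at a list share of 0.2%, and at 1% the endothelial shares were 0.399% and 0.170% and the GKO macrophage share 1.02%. For the share with both sides, the alternatives were chosen after seeing the data. At a side level of 15% it was 98.9% and 99% for Gcg+Sst, 88.8% and 90.8% for Gcg+Ppy and 13.2% and 15.9% for Sst+Ppy. At 35% it was 70.8% and 67.0%, 41.4% and 45.8%, and 5.58% for GKO Sst+Ppy. With a 10-fold contrast it was 44.4% and 45% for Gcg+Ppy. Without the most abundant gene of each side it was 97.8% and 100% for Gcg+Sst and 42.0% and 51.7% for Gcg+Ppy.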

Other observations

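Ghrelin RNA lay in single-hormone and hormone-poor barcodes of WT. Ghrl was at 2360 CPM in hormone-poor barcodes, where 5.08% had a UMI, and at 693 CPM (678 to 709) in Sst-only barcodes, where 3.93% had a UMI. In WT Sst+Ppy barcodes Ghrl was at 4.62 CPM (2.59 to 7.62) with 4.31% of barcodes holding a UMI, and in Gcg-only barcodes at 7.27 CPM with 6.62%. Similar shares of Sst-only and Sst+Ppy barcodes thus held Ghrl at very different sums. In the GKO library no Sst-only barcode held a Ghrl UMI.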
